A study of Mus musculus with 8 samples.

Results

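The BCL2 family genes that set the threshold for mitochondrial apoptosis were examined in tumor-associated macrophages (TAMs) with and without miR-21. The 10 genes were taken by symbol from the 53247 genes of the deposited table, by their known role and not by a limit on their values: Bcl2, Bcl2l1, Mcl1, Bcl2a1b and Bcl2a1d on the anti-apoptotic side, and Bax, Bak1, Bcl2l11, Bid and Pmaip1 on the pro-apoptotic side. RNA-Seq was performed on TAMs sorted as CD45+, CD11b+, MHCII+ and F4/80+ cells out of s.c. tumors grown from LLC, the Lewis lung carcinoma line of C57BL/6 mice, at day 14. Both groups were mice of 10 weeks on a C57/BL6 background, 4 samples WT and 4 samples miR-21-/-, each labelled a biological replicate. The miR-21-/- mice lack miR-21 in the whole body, so that other immune cells and the stroma of the tumor lacked it as well, while the implanted LLC cells were the same in both groups. The label of miR-21-/- replicate 1 carries 2 numbers, and whether it pools mice is not stated, so it entered as 1 sample.

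In this pathway the anti-apoptotic proteins hold the effectors BAX and BAK in check at the outer mitochondrial membrane, and the BH3-only proteins, so called for the short domain they share with the rest of the family, release or activate the effectors. Once active, BAX and BAK permeabilize the membrane, cytochrome c leaves the mitochondria and caspases are activated. Some myeloid cells are known to rely on MCL1 and on the A1 proteins, encoded in the mouse by the Bcl2a1 genes. Whether the TAMs studied here do was not tested. NOXA (Pmaip1) binds MCL1 in particular, whereas BIM (Bcl2l11) binds all of the anti-apoptotic members.

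A microRNA recognizes its targets mainly through its seed, bases 2 to 8, so the annotated 3′ UTRs of the members were searched for the complement of the miR-21 seed. The mature microRNA (chr11:86584120-86584141, minus strand, GRCm38.p6, sequence from RefSeq) is shown with the seed in capitals, followed by each 7-base match found in the longest GENCODE vM21 3′ UTR of a member, with 11 bases on either side and the match in capitals.
miR-21a-5p: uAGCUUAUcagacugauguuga
Bcl2: aattattttttTAAGCTAccaattgtgcc
Mcl1: ctgaaggtattTAAGCTAgggtcatttga
Bcl2l11: gtatattacctATAAGCTtccttctagat
The match in Bcl2 (chr1:106542554-106542560, minus strand) and that in Mcl1 (chr3:95662444-95662450, plus strand) pair with bases 2 to 7 and are followed by an A. The match in Bcl2l11 (chr2:128160155-128160161, plus strand) pairs with all of bases 2 to 8. No member held the full 8-base match, ATAAGCTA, and the other 7 members held no match of 7 bases. Of 11480 tested genes for which a 3′ UTR is annotated, 13.0% held a match of 7 or 8 bases and 2.31% held one of 8 bases. A match of letters does not show that a site is used.

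The deposited values were taken as CPM, counts per 1000000 reads, and summed to 788093.6 to 807752.5 per sample. The depth per sample, inferred from the size of 1 read among low values, was 20.2 to 33.4 (in units of 1000000 reads). Mir21a itself had no counted reads in any of the 8 samples, so that it could not check the genotypes. Vmp1, the gene beside it, lay at 115 to 133 CPM in WT and was higher, at 373 to 426 CPM, without miR-21. Markers of macrophages such as Itgam (1870 to 2320 CPM over all samples) and C1qa (955 to 1210 CPM) were high in both groups, while Adgre1, which encodes the sort marker F4/80, fell from 564 ± 19.4 to 433 ± 27.5 CPM, Csf1r fell and the Fc receptor gene Fcgr1 rose from 273 ± 35.4 to 458 ± 45.8 CPM (SD of 4 samples). The 10 macrophage markers summed to 9070 to 10100 CPM in WT samples against 8210 to 9560 CPM. Markers of other cells also differed between the genotypes. The summed level of 10 neutrophil markers was 1120 to 2260 CPM in WT and 800 to 1150 CPM in miR-21-/- samples, with 6 of 9 tested genes lower, and that of 7 fibroblast markers was 67.0 to 143 CPM against 11.6 to 45.9 CPM, with 5 of 6 lower. B lymphocyte markers (8 genes) summed to 115 to 137 CPM against 39.7 to 55.5 CPM, with all 4 tested genes lower and Ms4a1 under 2 CPM in every sample. NK cell markers (7 genes) summed to 12.4 to 29.3 CPM against 45.7 to 66.9 CPM, with Prf1 and Klrk1 higher while the defining genes Ncr1, Klrb1c, Klra8 and Eomes were under 1 CPM throughout, and T lymphocyte markers (10 genes) summed to 27.6 to 48.4 CPM against 12.9 to 46.9 CPM, with 1 gene higher and 3 lower. Dendritic cell markers (8 genes) summed to 12.6 to 21.3 CPM against 15.8 to 38.9 CPM (1 gene higher, 1 lower), those of LLC or other epithelial cells (8 genes) to 19.9 to 26.3 CPM against 13.7 to 18.4 CPM (2 lower) with Epcam under 1 CPM, mast cell or basophil markers (6 genes) to 5.66 to 6.61 CPM against 3.19 to 4.74 CPM (1 lower), and endothelial markers (7 genes) to 20.9 to 23.8 CPM against 17.2 to 25.4 CPM. The part of such cells in the differences given here was not tested, and in bulk RNA fewer cells of a type and less RNA per cell cannot be told apart.

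In all, 5 of the family members rose and 1 fell in miR-21-/- TAMs at a modest size. Bcl2, which encodes the founding anti-apoptotic protein, and Bcl2l11, which encodes the BH3-only protein BIM, each rose by close to 1.5-fold (folds of 1.464 and 1.497), Bcl2a1d, Bak1 and Bid rose by less, and Pmaip1, which encodes NOXA, fell to 0.699 of its WT level. Mcl1, the most abundant member, was within 4.2% of its WT mean. Values were compared as log2(CPM + 1) with limma, which understates the change of low genes, over the 13850 genes whose mean reached 1 per 1000000, and p was adjusted over all of them by the Benjamini-Hochberg method. All 10 members were above this limit. At an adjusted p of at most 0.05, 6 of 10 members were called, where 36.0% of all tested genes were called. Higher in the miR-21-/- group were 5, against 9.49% of all genes, and 1 was lower, against 26.5% of all genes. By limma, with folds taken on the log2(CPM + 1) scale, 0 of 10 members passed the limits the study used. These were an adjusted p of at most 0.005 and a fold change over 1.5, and 986 genes or 7.12% passed them. The 4 WT and 4 miR-21-/- values did not overlap for 5 of 10 members, against 35.1% of all genes. The median log2 fold change was 0.24 over the members and -0.10 over all tested genes. Of the genes called at 0.05, 26.4% were higher under the deposited scaling, whereas rescaling by the median of ratios moved the median of all genes up by 0.105 and gave 52.4% higher, and quantile normalization gave 45.7%.

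**Figure D1:**
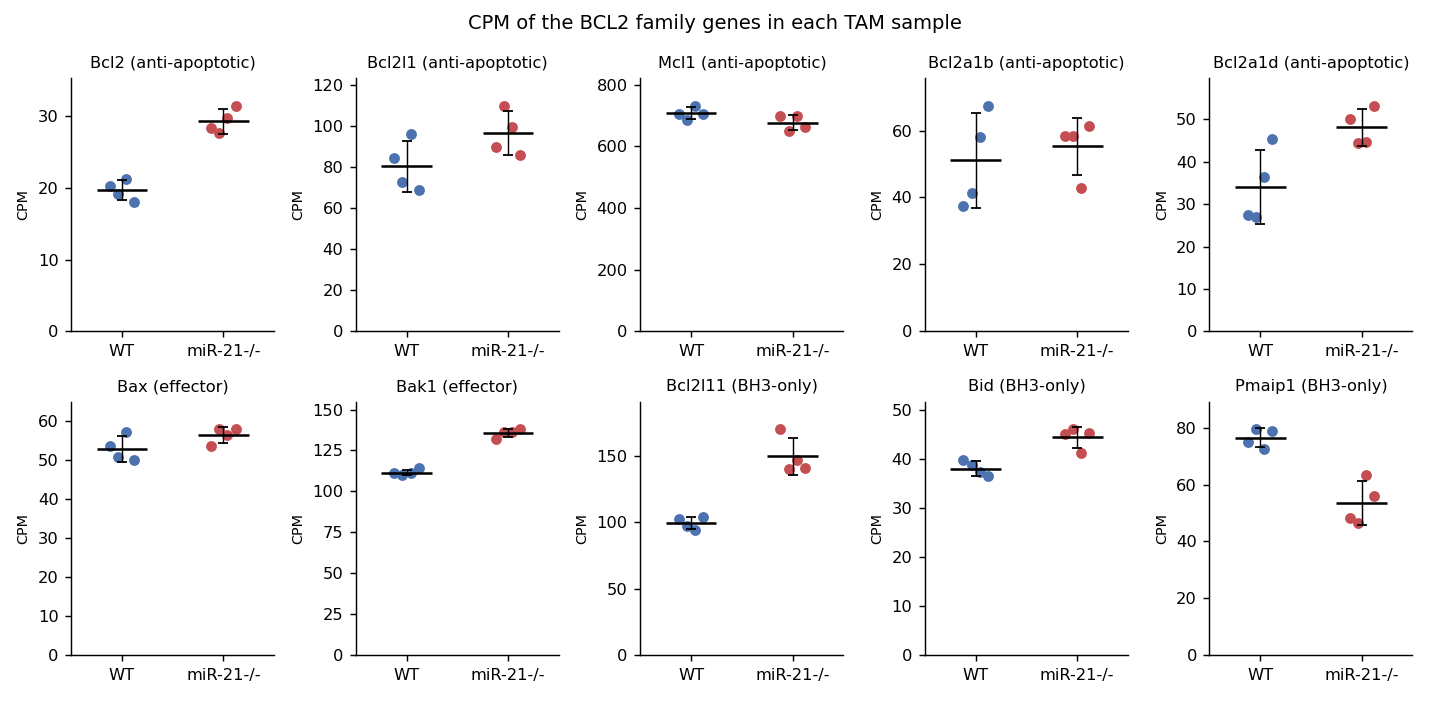
CPM (y axis, from 0) of each of the 10 BCL2 family genes in the 4 WT (blue) and 4 miR-21-/- (red) TAM samples; the long bar is the mean and the error bar the SD. The groups are apart for Bcl2, Bcl2l11, Bak1, Bid and Pmaip1, and Pmaip1 is the gene of these 5 that is lower in miR-21-/- TAMs.

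Of the 5 anti-apoptotic genes, Bcl2 and Bcl2a1d rose and Bcl2l1, Mcl1 and Bcl2a1b did not pass the test. Bcl2 (chr1:106538178-106714274, minus strand, GRCm38 here and for the other genes) was measured at 20.2, 19.2, 21.3 and 18 CPM in WT replicates 1 to 4 and at 28.3, 27.6, 29.7 and 31.5 CPM in miR-21-/- replicates 1 to 4. Every miR-21-/- sample was above every WT sample. Bcl2 went from 19.7 ± 1.43 to 29.3 ± 1.70 CPM (mean ± SD of 4 samples), and the log2 fold change was 0.55 (SE 0.070, limma adjusted p = 0.000387). Leaving out any single sample kept the log2 fold change between 0.51 and 0.59. An antisense gene, D630008O14Rik, overlaps exons of Bcl2 over 558 bases and lay under 1 CPM on average in both groups (0.058 in WT, 0.224 in miR-21-/- TAMs).

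Bcl2l1 (chr2:152780668-152831728, minus strand), which encodes BCL-XL, a long-lived survival protein, was at 84.3, 72.6, 96.1 and 68.7 CPM in WT and at 90.0, 110, 99.7 and 86.1 CPM in miR-21-/- TAMs. WT replicate 3 lay inside the miR-21-/- range, so the groups overlapped. The log2 fold change was 0.26 (95% interval 0.019 to 0.51, limma adjusted p = 0.0859). Without WT replicate 3 the log2 fold change was 0.35 (limma adjusted p = 0.0275), and under the median of ratios it was 0.38 (adjusted p = 0.0225), within a range of adjusted p from 0.0225 to 0.21 over the alternatives.

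Mcl1 (chr3:95658788-95663176, plus strand), which encodes a short-lived protein that must be made continuously, had the steadiest level relative to its mean among the anti-apoptotic genes. It was at 704, 686, 733 and 707 CPM in WT and at 699, 649, 700 and 663 CPM in miR-21-/- TAMs. The groups overlapped. The means were 708 ± 19.5 and 678 ± 25.9 CPM (SD, n = 4 each), and the log2 fold change of -0.063 (95% interval -0.19 to 0.065, limma adjusted p = 0.421) changed sign to 0.055 under the median of ratios.

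The A1 genes Bcl2a1b (chr9:89199209-89207827, plus strand) and Bcl2a1d (chr9:88723285-88731914, minus strand) are NF-kB-regulated survival genes of myeloid cells and are near copies of each other. Their coding sequences of 516 bases were identical at 510 bases (98.8%), with a longest shared run of 217 bases, so that a short read can fit both. The first 60 coding bases (GENCODE vM21, GRCm38) show how few bases tell them apart, with the bases that differ in capitals.
Bcl2a1b: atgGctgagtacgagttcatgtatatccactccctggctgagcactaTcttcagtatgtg
Bcl2a1d: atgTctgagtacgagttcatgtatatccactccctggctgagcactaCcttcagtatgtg
In none of the 8 samples did the value of either gene correspond to a whole number of reads (tolerance of 0.05 reads), which held for Mcl1, Bak1 and Bid as well, whereas Bcl2l1 and Pmaip1 corresponded to whole reads in all 8. Bcl2a1b also shares 401 exon bases with Gm29094 on the same strand, which lay at 5.13 ± 0.183 CPM in WT against 5.81 ± 0.672 CPM (SD, 4 samples each).

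Bcl2a1b was at 37.4, 41.4, 58 and 67.5 CPM in WT and at 58.5, 58.3, 42.7 and 61.5 CPM in miR-21-/- TAMs. The WT samples spread more widely than the miR-21-/- samples and covered their whole range, and the log2 fold change was 0.14 (95% interval -0.27 to 0.54, limma adjusted p = 0.585). Bcl2a1d was at 27.4, 26.9, 36.5 and 45.4 CPM in WT and at 50.2, 44.4, 44.8 and 53.3 CPM in miR-21-/- TAMs. WT replicate 4 was the single WT sample inside the miR-21-/- range. Its log2 fold change was 0.52 (SE 0.15, limma adjusted p = 0.0233). This call was lost without WT replicate 1, WT replicate 2, miR-21-/- replicate 1 or miR-21-/- replicate 4 (limma adjusted p = 0.0585, 0.0647, 0.053 and 0.0583), and across alternatives the adjusted p spanned 0.00218 to 0.202. The highest of these came from adding Bcl2a1a, Bcl2a1b, Bcl2a1c and Bcl2a1d into 1 value, an alternative chosen after seeing the data. The sum was 107 ± 31.7 CPM for WT against 128 ± 14.6 CPM for miR-21-/- TAMs (SD, 4 samples each), with overlapping groups and a log2 fold change of 0.31 (limma adjusted p = 0.202).

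Of the effectors, Bak1 rose and Bax did not pass the test. Bak1 (chr17:27019810-27029009, minus strand), which encodes BAK, the effector resident at the mitochondria, was at 111, 110, 111 and 114 CPM in WT and at 132, 136, 136 and 138 CPM in miR-21-/- TAMs. The samples of each genotype lay within a few CPM of each other and the groups were well apart. Bak1 went from 112 ± 1.74 to 136 ± 2.69 CPM (mean ± SD of 4 samples), and the log2 fold change was 0.28 (SE 0.043, limma adjusted p = 0.0011). Ggnbp1 on the opposite strand shares 614 exon bases with Bak1 and was at 2.58 ± 0.931 and 2.53 ± 0.329 CPM.

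Bax (chr7:45461697-45466898, minus strand), which encodes the effector that shuttles between cytosol and mitochondria, was at 53.8, 50.8, 57.3 and 50 CPM in WT and at 53.6, 58, 56.5 and 58 CPM in miR-21-/- TAMs. The groups overlapped. The log2 fold change was 0.093 (95% interval -0.036 to 0.22, limma adjusted p = 0.234). It was 0.21 under the median of ratios (limma adjusted p = 0.0157) and 0.16 under quantile normalization (limma adjusted p = 0.0392), so the call depended on the scaling, with adjusted p from 0.0157 to 0.426 over the alternatives.

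The BH3-only genes moved in both directions, with Bcl2l11 and Bid higher and Pmaip1 lower in miR-21-/- TAMs. Bcl2l11 (chr2:128126038-128162547, plus strand), which encodes BIM, a protein induced when survival factors are withdrawn, was at 102, 97.1, 93.8 and 104 CPM in WT and at 170, 140, 147 and 141 CPM in miR-21-/- TAMs. All miR-21-/- samples were above all WT samples, and replicate 1 was the highest. Bcl2l11 went from 99.2 ± 4.58 to 149 ± 13.8 CPM (mean ± SD of 4 samples), and the log2 fold change was 0.58 (SE 0.069, limma adjusted p = 0.000261). On the log2(CPM + 1) scale its fold of 1.497 lay just under the fold limit of the study, while its mean CPM rose by 50.5%. Whether it passed that limit thus depended on the scale, and it was past it in 8 of the 18 alternatives. Bcl2l11 is among the predicted miR-21 targets that a plot of the study draws from genes higher in these same samples, so its direction is not independent evidence.

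Bid (chr6:120891930-120916853, minus strand), which links death receptors to the mitochondria when its protein is cleaved by caspase-8, was at 39.8, 38.7, 37.3 and 36.5 CPM in WT and at 45.2, 46.1, 41.3 and 45.3 CPM in miR-21-/- TAMs. The groups did not overlap, and miR-21-/- replicate 3 was nearest to WT. Bid went from 38.1 ± 1.48 to 44.5 ± 2.14 CPM (mean ± SD of 4 samples), and the log2 fold change was 0.22 (SE 0.056, limma adjusted p = 0.0131). Bid shares 628 exon bases with Bcl2l13 on the opposite strand, and without a stated strand reads from there cannot be told apart. Bcl2l13 was at 32.4 ± 1.78 CPM in WT against 31.0 ± 0.909 CPM (limma adjusted p = 0.428).

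Pmaip1, a gene induced by p53 and by cell stress, was at 74.9, 79.5, 72.7 and 78.9 CPM in WT and at 48.3, 46.6, 63.3 and 55.9 CPM in miR-21-/- TAMs. All miR-21-/- samples were below all WT samples and varied more among themselves. Pmaip1 went from 76.5 ± 3.28 to 53.5 ± 7.67 CPM (mean ± SD of 4 samples), and the log2 fold change was -0.52 (SE 0.0905, limma adjusted p = 0.00204). Without miR-21-/- replicate 3 the log2 fold change was -0.60.

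**Figure D2:**
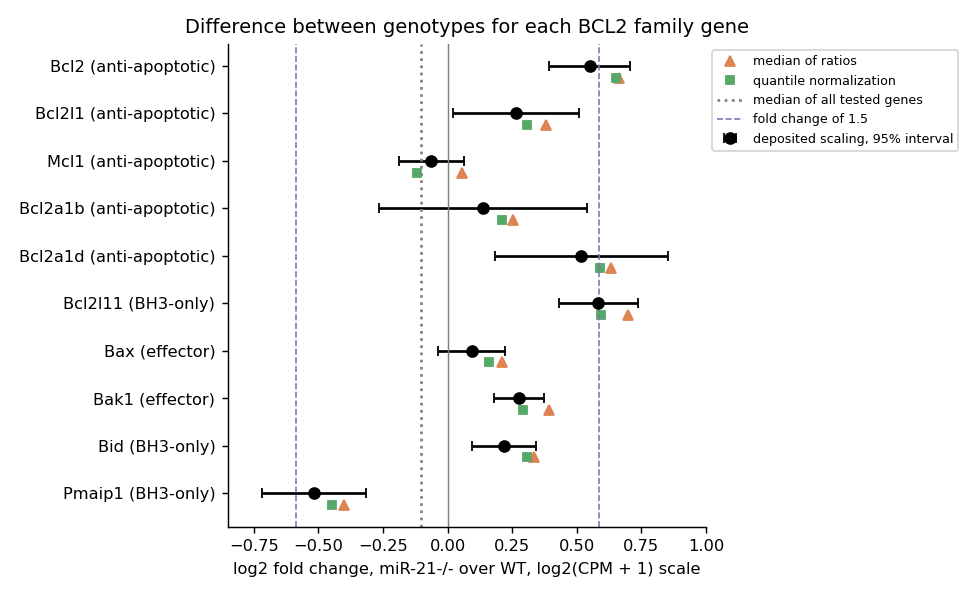
Log2 fold change of miR-21-/- over WT TAMs (x axis, log2(CPM + 1) scale) for each BCL2 family gene, with the 95% interval under the deposited scaling (black), and the value under the median of ratios (orange) and quantile normalization (green). The dotted line is the median of all tested genes, -0.10, and the dashed lines are the fold limit of 1.5, which no black point passes.

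A library of each genotype stood apart from its group in genes outside the family. WT replicate 4 had 65.3 CPM of Gas6 against 163 to 212 CPM in the other WT samples, and miR-21-/- replicate 1 had 192 CPM of Mki67 against 308 to 390 CPM in the other miR-21-/- samples. Without both, an alternative added after seeing the data, the same 6 members were called by limma, with log2 fold changes of 0.53 for Bcl2, 0.54 for Bcl2l11, 0.30 for Bak1, 0.19 for Bid (adjusted p = 0.0475) and -0.46 for Pmaip1.

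To compare the anti- with the pro-apoptotic side, the mean log2(CPM + 1) of the 5 genes of each side was taken in every sample. The anti-apoptotic mean was 6.07, 6.03, 6.34 and 6.29 in WT and 6.48, 6.47, 6.40 and 6.51 in miR-21-/- TAMs, and the pro-apoptotic mean was 6.18, 6.15, 6.14 and 6.16 in WT and 6.28, 6.25, 6.31 and 6.30 in miR-21-/- TAMs. Both sides were higher in miR-21-/- TAMs without overlap. Their difference, anti- minus pro-apoptotic, was -0.101, -0.116, 0.203 and 0.138 in WT and 0.203, 0.223, 0.09 and 0.21 in miR-21-/- TAMs. It was 0.15 higher on average in miR-21-/- TAMs, but the groups overlapped, as WT replicates 3 and 4 were at the level of the miR-21-/- samples. As a description without a test, the median log2 fold change was 0.26 for the anti-apoptotic and 0.22 for the pro-apoptotic members, and 2 of 5 and 3 of 5 rose (9.49% of all tested genes) while 0 of 5 and 1 of 5 fell (26.5% of all tested genes).

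Single pairs of an anti-apoptotic and a pro-apoptotic transcript went in different directions. The ratio of Bcl2 to Bax was 0.375, 0.379, 0.372 and 0.359 in WT and 0.528, 0.476, 0.525 and 0.542 in miR-21-/- TAMs, higher in each miR-21-/- sample. The ratio of Mcl1 to Bcl2l11 was 6.89, 7.06, 7.82 and 6.83 in WT and 4.12, 4.64, 4.77 and 4.70 in miR-21-/- TAMs, lower in each. The ratio of Mcl1 to Pmaip1, a pair whose proteins bind each other, went the other way, with 9.40, 8.62, 10.1 and 8.96 in WT and 14.5, 13.9, 11.1 and 11.9 in miR-21-/- TAMs. That of Mcl1 to Bak1 was lower in each miR-21-/- sample, at 6.337 ± 0.186 in WT and 5.003 ± 0.26 in miR-21-/- TAMs. For Bcl2l1 to Bak1 the groups overlapped, at 0.721 ± 0.116 and 0.711 ± 0.0785 (SD, n = 4 each). Among the 6 pairs of a called anti-apoptotic and a called pro-apoptotic member that both rose, 2 did not overlap between the groups. The ratio of Bcl2 to Bak1 was 0.157 to 0.192 in WT and 0.203 to 0.227 in miR-21-/- TAMs, and that of Bcl2 to Bid was 0.492 to 0.572 and 0.598 to 0.718, both higher without miR-21. The other 4 pairs overlapped. The ratio was 0.199 ± 0.0222 in WT and 0.197 ± 0.0232 in miR-21-/- TAMs for Bcl2 to Bcl2l11, and 0.343 ± 0.084 and 0.324 ± 0.0371 for Bcl2a1d to Bcl2l11 (SD, n = 4 each). The summed CPM of the pro-apoptotic members was 372 to 383 in WT and 426 to 449 in miR-21-/- TAMs, while that of the anti-apoptotic members, of which Mcl1 made up 73.0% to 81.1%, was 846 to 945 and 889 to 926. These ratios need no scaling between samples and describe transcripts, not proteins.

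**Figure D3:**
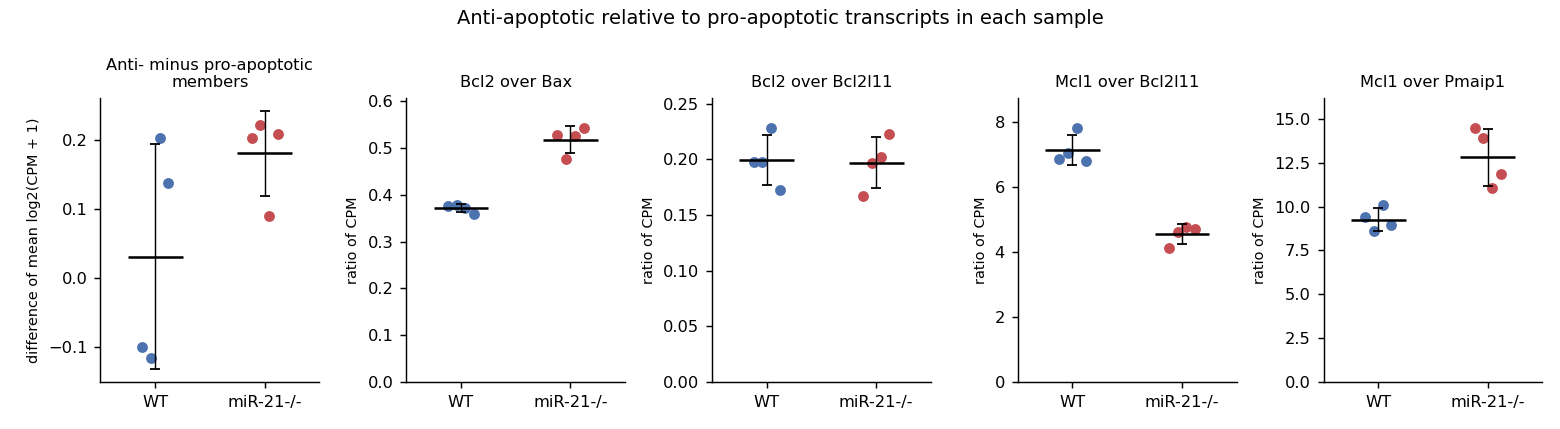
Per sample, the mean log2(CPM + 1) of the 5 anti-apoptotic minus that of the 5 pro-apoptotic genes (left, log2 units, axis not from 0), and 4 ratios of CPM (from 0), in WT (blue) and miR-21-/- (red) TAMs, with mean and SD. The groups overlap on the left and for Bcl2 over Bcl2l11, and are apart for the other ratios.

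Levels of different genes were compared as CPM per kb of annotated exons (GENCODE vM21). In WT TAMs Mcl1 was the highest at 207 CPM per kb (201 to 214), followed by Bcl2a1b at 62.5 (45.8 to 82.6), Bak1 at 46.4 (45.8 to 47.4), Bcl2a1d at 39.5 (31.2 to 52.6) and Bax at 33.6 (31.7 to 36.4). These last 4 did not all differ beyond their spread, since the ranges of Bcl2a1b and Bcl2a1d each overlapped that of Bak1 and the range of Bcl2a1d overlapped that of Bax. Pmaip1 at 28.0 (26.6 to 29.1), Bcl2l1 at 17.5 (15 to 21), Bcl2l11 at 12.4 (11.7 to 12.9) and Bid at 10.7 (10.3 to 11.2) came next, each without overlap with its neighbor, and Bcl2 was the lowest at 2.15 (1.96 to 2.33). In miR-21-/- TAMs Mcl1 was again the highest, at 198 CPM per kb, and Bcl2 the lowest, at 3.20. Pmaip1 there (17.1 to 23.2) overlapped Bcl2l1 (18.8 to 23.9) and Bcl2l11 (17.4 to 21.1). The middle of the order depended on the length used. With the longest transcript in place of all exons, Bax was at 48.2 and Bak1 at 46.8, and Bcl2l1 at 31.3 and Pmaip1 at 28.1 CPM per kb in WT TAMs.

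**Figure D4:**
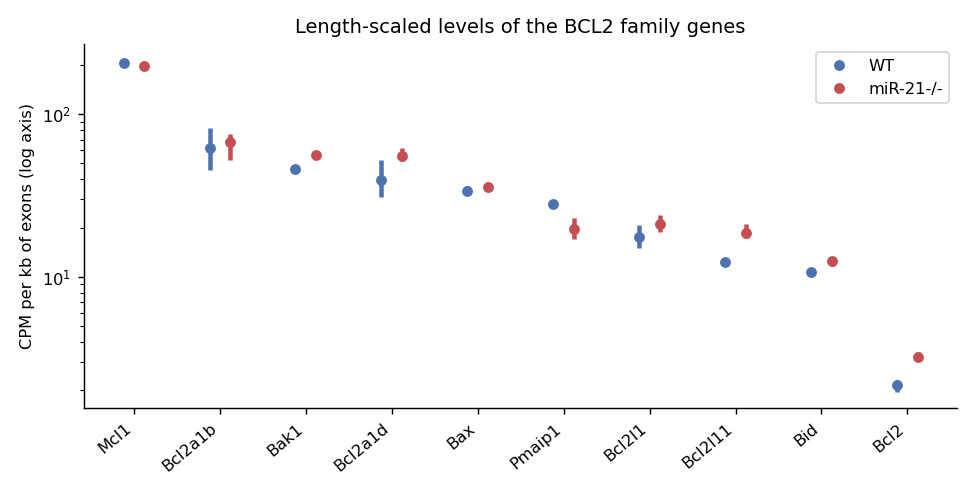
CPM per kb of exons (y axis, log scale) of the BCL2 family genes in WT (blue) and miR-21-/- (red) TAMs; points are means of 4 samples and lines run from the lowest to the highest sample. Mcl1 is at the top at 207 and 198, and Bcl2 at the bottom at 2.15 and 3.20.

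Promoters from RefSeq (GRCm38.p6, 250 bases before to 50 after each start) were taken for 9 of 10 members in 12 entries. Pmaip1 was left out of this step. The promoters were searched on both strands for TTCNNNGAA (STAT), GAAANNGAA (IRF) and GGNNTTTCC (NF-kB), motifs of factors known to act on the family in immune cells. No entry held the STAT or the IRF motif, which 8.3% and 8.6% of the 32851 promoters of the table hold. The NF-kB motif, held by 5.8% of all promoters, was found in a promoter of Bcl2l1, at positions -218 and -202 from the start, and in that of Mcl1, at position -28, both members that were not called at 0.05. The windows around 1 match of each gene are shown with the match in capitals, on the strand of the gene.
Bcl2l1 (chr2:152830896-152830935): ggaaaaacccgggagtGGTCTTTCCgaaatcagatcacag
Mcl1 (chr3:95658677-95658716): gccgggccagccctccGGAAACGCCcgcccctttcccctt
The absence of these letters from the promoters of the other members searched says nothing about the factors outside this window.

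For the rest of the family, 10 of 16 genes could be tested, and 1 of them was called, where 36.0% of all tested genes were. Bmf, which encodes a BH3-only protein tied to the cytoskeleton, was at 16.2, 21.2, 16.6 and 13.9 CPM in WT and at 7.72, 6.27, 6.30 and 6.68 CPM in miR-21-/- TAMs. All miR-21-/- samples were below all WT samples, and the log2 fold change of -1.20 (SE 0.12, limma adjusted p = 0.000103) was past the limits of the study, with no 7-base match to the miR-21 seed in its 3′ UTR. The BH3-only gene Bbc3, which encodes PUMA, was at 4.98 ± 0.556 and 4.66 ± 0.706 CPM, Bad at 11.7 ± 1.10 and 10.4 ± 1.37 CPM, and the anti-apoptotic Bcl2l2 at 21.4 ± 1.52 and 21.7 ± 3.02 CPM (SD, n = 4 each), none of which passed the test. Bcl2a1a had the highest log2 fold change of these genes, 0.30 (limma adjusted p = 0.326). The effector gene Bok was at 0.33 to 1.35 CPM, and Hrk and Bcl2l10 had no counted reads.

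In the lists around the family that follow, the counts of genes passing an adjusted p of 0.05 stand against 36.0% of all tested genes called, 9.49% higher and 26.5% lower, and a share near these is no result about a list. Downstream of the mitochondria, 6 of 16 genes of the apoptosome and caspase list were called, 3 in each direction, close to the 36.0% of all genes. Cycs, which encodes cytochrome c, was at 22, 19.0, 15.7 and 20.6 CPM in WT and at 22.6, 28.0, 34.5 and 35.8 CPM in miR-21-/- TAMs, a log2 fold change of 0.61 (SE 0.15, limma adjusted p = 0.00993). The BAK-binding channel gene Vdac2 rose by 0.18, a call not past 0.05 without WT replicate 2 or miR-21-/- replicate 2 or 4 (limma adjusted p = 0.0531, 0.062 and 0.063). Casp2 fell by 0.40, the mitochondrial protease gene Htra2 by 0.40 and Dffa, which encodes the inhibitor of the apoptotic nuclease, by 0.25 on the log2 scale, though the call of Dffa was lost under the median of ratios (limma adjusted p = 0.122) and under quantile normalization (limma adjusted p = 0.119). Apaf1 (117 ± 10.6 and 110 ± 9.36 CPM), the scaffold of the apoptosome, did not pass the test.

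Of 8 inhibitor of apoptosis genes, 3 were called, again near the share of all genes (36.0%). Naip2 (log2 fold change 0.37) and Naip5 (0.24) rose and Naip6 (-0.51) fell. These are close paralogs known as sensors of bacterial proteins, and their reads may be shared. Of 10 death receptor genes, Fas rose from 7.91 ± 0.862 to 11.2 ± 1.06 CPM (SD of 4 samples, log2 fold change 0.46, limma adjusted p = 0.0053) and Tnfrsf1a by 0.26, while Casp8, whose product cleaves BID, fell by 0.13, a call that was lost when any 1 of the 8 samples was left out and under both scalings (log2 fold change of -0.012 and limma adjusted p = 0.871 under the median of ratios, -0.087 and 0.194 under quantile normalization). Fadd had the lowest log2 fold change, -0.15 (limma adjusted p = 0.199).

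Among 18 tested regulators of the transcription of the family, 2 rose and 4 fell, also close to the 36.0% called over all genes. Mitf, known to act on Bcl2 in melanocytes, rose from 26.6 ± 3.90 to 39.5 ± 2.41 CPM (log2 fold change 0.56, limma adjusted p = 0.0021), and Stat3, which acts on several survival genes, by 0.36. Foxo3, an activator of Bcl2l11 transcription, fell from 85.8 ± 8.07 to 62.2 ± 2.06 CPM (SD of 4 samples, log2 fold change -0.45), Myc fell by 0.50 (86.7 ± 8.36 to 61.2 ± 4.97 CPM), E2f1 by 0.34 and Rel by 0.22, of which Rel lost its call without WT replicate 2 or 4 or miR-21-/- replicate 2 or 3 (limma adjusted p = 0.0705, 0.0701, 0.0896 and 0.0875) and under the median of ratios (limma adjusted p = 0.318) and quantile normalization (limma adjusted p = 0.146). Trp53 (66.9 ± 4.76 and 62.6 ± 6.03 CPM) did not pass the test.

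Of 10 tested p53 target genes, Cdkn1a, the cell cycle inhibitor p21, ranged from 97.4 to 147 CPM in WT samples and from 196 to 213 CPM without miR-21 (log2 fold change 0.74, limma adjusted p = 0.000921), and Mdm2, the ligase that degrades p53, rose by 0.50. Sesn1, a stress gene, fell from 58.7 ± 11 to 28.0 ± 0.954 CPM (SD of 4 samples, log2 fold change -1.02). Cdkn1a and Sesn1 were past the limits of the study. Pmaip1 and Bbc3 are p53 targets too, so the genes of this class did not share a direction. Of 6 tested regulators of MCL1 turnover, Huwe1, a ligase for MCL1, fell by 0.30, and Trim17 had the highest log2 fold change, 0.23 (limma adjusted p = 0.276, mean of 0.734 CPM in WT). Of 8 survival factor receptors, 3 were called, near the 36.0% of all genes. Il4ra rose from 473 ± 74.5 to 792 ± 71.4 CPM (log2 fold change 0.75, past the limits of the study), Csf1r, the receptor for the main macrophage growth factor, fell by 0.48 and Axl by 0.84.

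**Figure D5:**
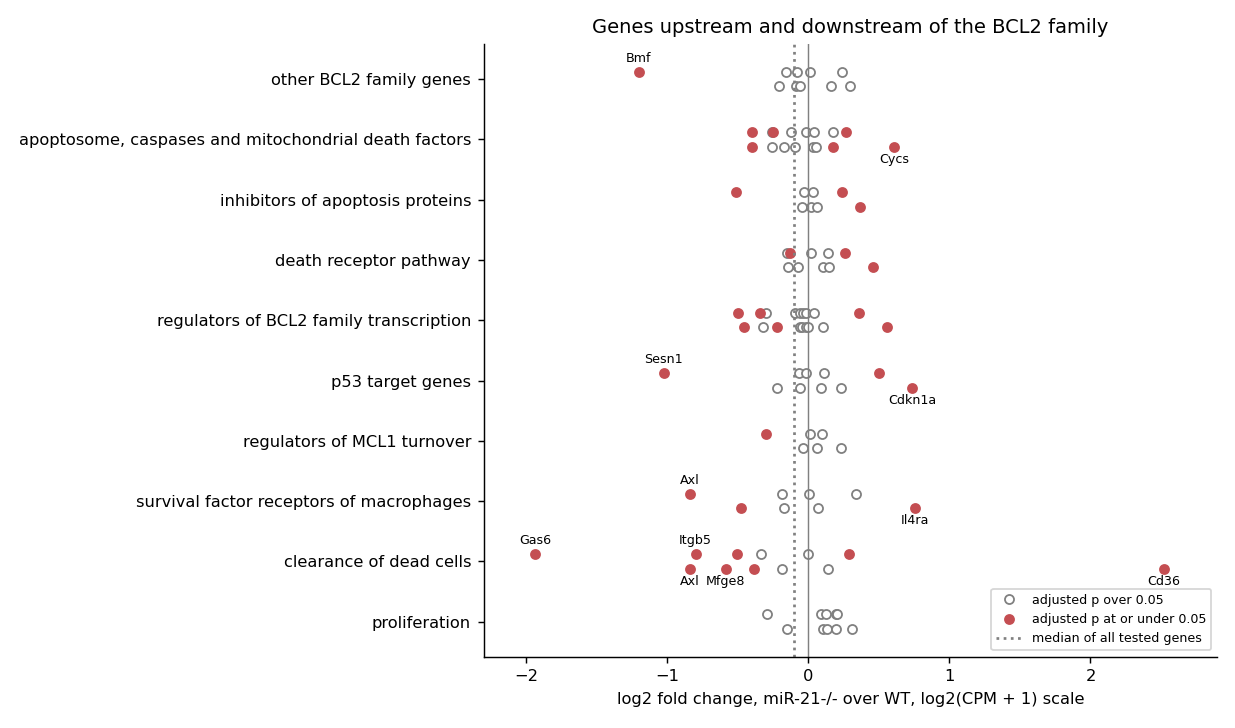
Log2 fold change of miR-21-/- over WT TAMs (x axis, log2(CPM + 1) scale) of the tested genes in each list around the BCL2 family, filled where the limma adjusted p was at most 0.05. Named points lie beyond 0.58 in either direction; most lists hold filled points on both sides of 0, and Bmf at -1.20 is the filled point of the other family genes.

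For each called member, the genes whose profile over the 8 samples was most like it were found by the root mean square difference of centred log2(CPM + 1) values. These were Ttc39b (0.057), Tmem173 (0.0681) and Nufip1 (0.0685) for Bcl2, Arid5b (0.049), Slc15a3 (0.0608) and Parp14 (0.0618) for Bcl2l11, and Erap1 (0.0304), Naa25 (0.0329) and Anxa11 (0.0363) for Bak1. Tmem173 encodes the DNA-sensing adaptor STING, and Erap1 a peptidase that trims peptides for MHC class I. For Bid they were Atf1-ps (0.0405), Cfap43 (0.0408) and Susd6 (0.0411), for Pmaip1 Cnot6l (0.0302), Rnf2 (0.0426) and Clk1 (0.0637), and for Bcl2a1d Sh3bp4 (0.109), the MHC class I gene H2-K1 (0.117) and Traf3ip2 (0.119). The values for Bcl2a1d were larger than those of the other 5 members. Since all of these genes were selected from 13850 for likeness, they are a description.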

How the data were processed

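RNA-Seq of 4 WT and 4 miR-21-/- samples of sorted TAMs was analysed. The authors deposited 1 table of normalized counts, taken as CPM, with each value raised by 0.0001, which was subtracted. The submitters' processing notes name STAR, mm10 and Partek 7.0, and the counting rule and strand are not given in the sources used here. Low values (up to 20 reads) were whole reads for 73.7% to 74.6% of genes (tolerance of 0.02 reads), so reads were not recovered and no count test was run.

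limma 3.58.1 (R 4.3.3; lmFit, eBayes with trend, two-sided) was run on log2(CPM + 1) for 13850 genes whose mean reached 1 per 1000000 of the column totals, with Benjamini-Hochberg adjustment over them. The members and lists were chosen with earlier results of these data known. Named genes are the members, the genes of each list past the limits of the study or with its highest and lowest log2 fold change, Vmp1 and Mir21a, and the 3 genes most like each called member. Other genes named were chosen after their values were seen. A few list members are not reported here. Figures were drawn with matplotlib 3.10.9.

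The alternatives tried were pseudocounts (0.1, 10), filters (none, 5 per 1000000), scaling by the median of ratios or by quantiles, eBayes without trend, arrayWeights, a replicate block, and each sample left out. With 4 samples per genotype, precision is limited by their spread, and by reads for genes near 3 reads (0.0899 to 0.148 CPM).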

Additional observations from a re-analysis of the deposited data

Results flagged for a closer look

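The difference between the mean log2(CPM + 1) of the anti-apoptotic and of the pro-apoptotic members was 0.09 in miR-21-/- replicate 3, below the other miR-21-/- samples at 0.203 to 0.223, a gap that was large for the range of its group. It was the only such sample in 48 groups looked at for the members, their sums and their ratios, where chance gives about 1 in 20 groups. The same sample had the lowest Bcl2a1b value of its genotype, 42.7 CPM, and the highest Pmaip1 value, 63.3 CPM against 46.6 to 55.9 CPM. Its anti-apoptotic mean of 6.40 was the lowest of its genotype and its pro-apoptotic mean of 6.31 the highest.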

How the results depend on the processing

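Of the 10 members, Bcl2, Bcl2l11, Bak1, Bid and Pmaip1 kept their direction and an adjusted p of at most 0.05 (limma) under all 18 alternatives, and 5 to 8 members were called. The count past the limits of the study was 0, and became 1 with a pseudocount of 0.1 (Bcl2l11) and 2 under the median of ratios or quantile normalization (Bcl2 and Bcl2l11 in both). Leaving out 1 sample gave 0 to 2, namely Bcl2l11 without WT replicate 1 or miR-21-/- replicate 2 or 4, Bcl2 without WT replicate 3, Bcl2a1d and Bcl2l11 without WT replicate 4, and Bcl2l11 and Pmaip1 without miR-21-/- replicate 3. Bcl2 and Bcl2l11 lay close to the fold limit. Over all genes, 986 passed these limits, 452 with a pseudocount of 10 (which shrinks fold changes) and 542 with no filter (where 30529 genes are adjusted for). Of the 986, 40.6% were higher, against 60.4% under the median of ratios, 59.3% under quantile normalization, 55.5% with a pseudocount of 10 and 51.7% with no filter. Mcl1 was 0.055 (adjusted p = 0.521, range 0.163 to 0.657) under the median of ratios, and Bcl2a1d lost its call with no filter (adjusted p = 0.0746). The difference between the sides was 0.101 to 0.208 without single samples. It was 0.101 without WT replicate 2 and 0.106 without WT replicate 1. The cause of these shifts was not tested. Same-numbered samples correlated at 0.083, -0.111, -0.143 and 0.22 in their deviations from the means of their genotype. Such values cannot decide whether same-numbered samples were collected or prepared together. The titles of miR-21-/- replicates 2 and 3 carry the numbers 3 and 4 instead. By title, these correlated at 0.135 with WT replicate 3 and at 0.032 with WT replicate 4. With the replicate block, which used the replicate numbers, 6 members and 4570 genes were called at an adjusted p of 0.05 (limma). In that fit 0 members and 922 genes passed the limits of the study. No symbol had several rows, and no member was below the filter, so the alternatives planned for those cases were not run. The p-values set the difference between genotypes against the spread between 4 samples per genotype, as moderated by limma over the tested genes.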

Other observations

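Genes for the clearance of dead cells, the step that follows apoptosis in a tissue, were also measured. Of 12 tested genes, 2 rose and 6 fell by limma at an adjusted p of at most 0.05, where 9.49% of all tested genes rose and 26.5% fell, and the median log2 fold change was -0.36. The calls of Pros1 (higher), Mfge8 and Dock1 (lower) were lost in some fits with 1 sample left out. With no filter they were lost as well (limma adjusted p = 0.0502, 0.0614 and 0.0623). Mfge8 also lost its call under quantile normalization (limma adjusted p = 0.0639), and Dock1 under the median of ratios (limma adjusted p = 0.0762). Over the alternatives, 6 to 9 genes were called. Cd36, a scavenger receptor for lipids and dying cells, was at 36.1, 9.0, 27.1 and 15.6 CPM in WT and at 118, 150, 101 and 102 CPM in miR-21-/- TAMs (log2 fold change 2.52, adjusted p = 0.00054). Gas6, the bridge between dying cells and the receptors AXL and MERTK, was at 163, 212, 181 and 65.3 CPM in WT and at 27.5, 50.7, 36.2 and 35.2 CPM in miR-21-/- TAMs (log2 fold change -1.93, adjusted p = 0.00163). Its receptor gene Axl fell from 317 ± 69.3 to 176 ± 41.1 CPM, and the integrin gene Itgb5 from 161 ± 16.1 to 91.7 ± 1.99 CPM (SD, n = 4 each), while Mertk (150 ± 37.3 and 128 ± 11.2 CPM) did not pass the test. The 7 fibroblast markers summed to 67.0 to 143 CPM in WT and 11.6 to 45.9 CPM in miR-21-/- samples, with 5 of 6 tested genes lower, and their part in the Gas6 difference was not tested.

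Of 10 proliferation genes, 0 passed an adjusted p of 0.05 by limma, where 36.0% of all tested genes did. The highest log2 fold change was that of Top2a, 0.31, and the lowest that of Mcm2, -0.29. Without miR-21-/- replicate 1, whose Mki67 was 192 CPM against 308 to 390 CPM in the others, 5 were higher, and without it and WT replicate 4 (an alternative chosen after seeing the data) 8 were higher. There were 2 calls with the replicate block (1 higher, 1 lower) and 1 each under the median of ratios and arrayWeights.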
